A study of Mus musculus with 32 samples.

Results

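The 14-day primary tumors of *Clic4* knockout (KO) and wildtype (WT) hosts are 12 of the 32 samples of the series, 6 from each host genotype, chosen by the tissue and host genotype in the sample labels. 6DT1 cells, a line from a mammary tumor of an MMTV-Myc transgenic mouse in which the mammary tumor virus promoter drives Myc, were put into a mammary fat pad of FVB/N mice, and RNA of the whole tumor was sequenced at 14 days. The hosts were virgin females of 6 to 8 weeks at implantation, littermates from crosses of heterozygous carriers, and the deletion was inherited through the germline. The knockout was made on a mixed background and then bred onto FVB/N. The implanted cells carried *Clic4* in both groups, so the genotype differed between hosts and not between the cancer cells. All samples come from 1 implanted line, and the labels name neither the litter nor the cage of a host. The question was how the whole transcriptome of a tumor differed with the genotype of its host, beyond the interferon-induced genes that lead the list.

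*Clic4* encodes a small protein of the chloride intracellular channel family that moves between the cytosol, membranes and nucleus and has been linked to TGF-β signaling, vessel formation and cilia. A mammary tumor grown in a fat pad mixes cancer cells with host fibroblasts, vessels, macrophages, lymphocytes and fat. Interferon-γ, made by T cells and natural killer (NK) cells, acts through the kinases Jak1 and *Jak2* to induce *Irf1*, which with related factors turns on genes of antigen presentation, GTPases that attack intracellular microbes and chemokines that draw T cells. In macrophages the same signal raises genes of the oxidative burst, of adhesion and of altered sugar and sterol use.

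Of the 13830 genes with enough counts for a test, 270 (1.95%) were higher and 69 (0.499%) were lower in tumors from KO hosts at an FDR of 0.05 in the quasi-likelihood test of edgeR, which scales each library by TMM. These genes are called higher or lower hereafter. The genes called higher had a median log2 fold change of 0.95, and 31 of them differed by more than 4-fold, 97 by 2- to 4-fold and 142 by less. The genes called lower had a median of -0.40, none differed by more than 4-fold, and 5 (0.0362% of the genes tested) differed by more than 2-fold. The genes that fell were also more abundant, with a median of 71.8 CPM (counts scaled to library size) in tumors from WT hosts, against 19.3 CPM for the genes that rose and 20.9 CPM for all genes tested. Each tumor from a KO host was above every tumor from a WT host for 176 of the 270, and below every one for 36 of the 69, where 1.49% and 0.463% of all genes tested had such separate groups. With each tumor left out in turn, 161 of the 270 and 16 of the 69 passed in all 12 fits. Of 68 lists of genes by pathway or cell type, 26 held a gene called higher, 7 a gene called lower and 38 no call, and 163 of the 270 and 60 of the 69 belonged to no list. By unadjusted p under 0.05, 8.71% of the genes tested were higher and 6.42% lower, DESeq2 called 2.79 and 0.787%, and limma on log2(FPKM + 1) called 1.24 and 0.189%. Throughout, a level is the median of 6 tumors, with the lowest and the highest in parentheses. A log2 fold change is KO over WT hosts, so a negative value is lower in tumors from KO hosts.

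**Figure D1:**
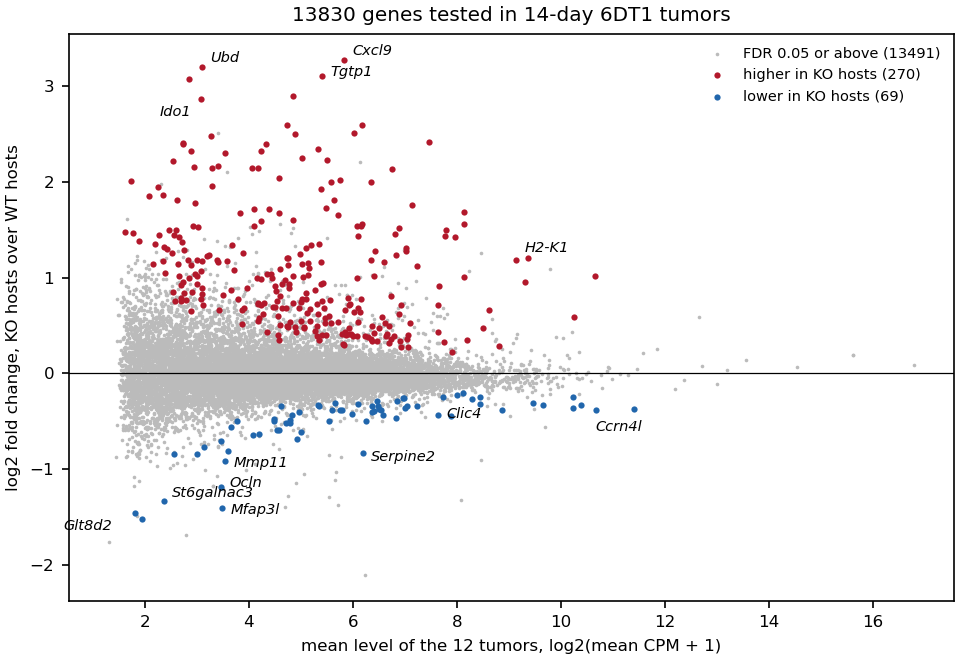
Each point is 1 of 13830 genes, with the mean level of the 12 tumors as log2(mean CPM + 1) on the horizontal axis and the log2 fold change of KO over WT hosts on the vertical axis. The 270 red genes reach a log2 fold change of 3.28, while the 69 blue genes end at -1.52 and most lie close to the bulk of the genes.

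The libraries held 4446323 to 6518501 counts assigned to genes, and neither this total nor the share of mitochondrial counts, 13.3 to 17.4%, differed between the groups beyond the spread (exact permutation tests, two-sided, p = 0.794 and p = 0.667). The tumors carried the keratins of simple epithelium, with *Krt8* at 164 to 275 FPKM and *Krt18* at 108 to 183 FPKM, while *Epcam* was at 1.35 to 12.6 FPKM and the milk protein gene *Wap* had 0 to 3 counts in each tumor. Fibroblasts, vessels and macrophages were present in every tumor, since *Col1a1*, *Pecam1* and *Csf1r* had at least 2220, 212 and 396 counts. Genes of muscle, milk, fat or B cells were high in some samples. Whether tissue around the tumor was the source was not tested. *Acta1* of skeletal muscle had 142 counts in KO tumor 1, 55 in WT tumor 6 and 30 in WT tumor 1, and no more than 11 in each of the others. *Csn2*, which encodes a milk casein, had 224 counts in WT tumor 6 and at most 21 elsewhere. *Plin1* of fat cells was highest in KO tumor 2, with 138 counts. The summed level of B and plasma cell markers was 327 CPM in WT tumor 2 and 121 to 212 CPM elsewhere. With 4 tumors chosen for high muscle, fat, B cell or casein genes (KO 1, KO 2, WT 2 and WT 6) left out, and WT tumor 1, with 204 CPM of muscle genes, and KO tumor 3, with 1241 CPM of adipocyte genes, kept, 197 genes were called higher and 23 lower, 149 of the 270 and 12 of the 69 were still called, and 269 of the 270 and all 69 kept their sign. In bulk tissue, fewer cells of a type and less RNA per cell cannot be told apart.

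**Figure D2:**
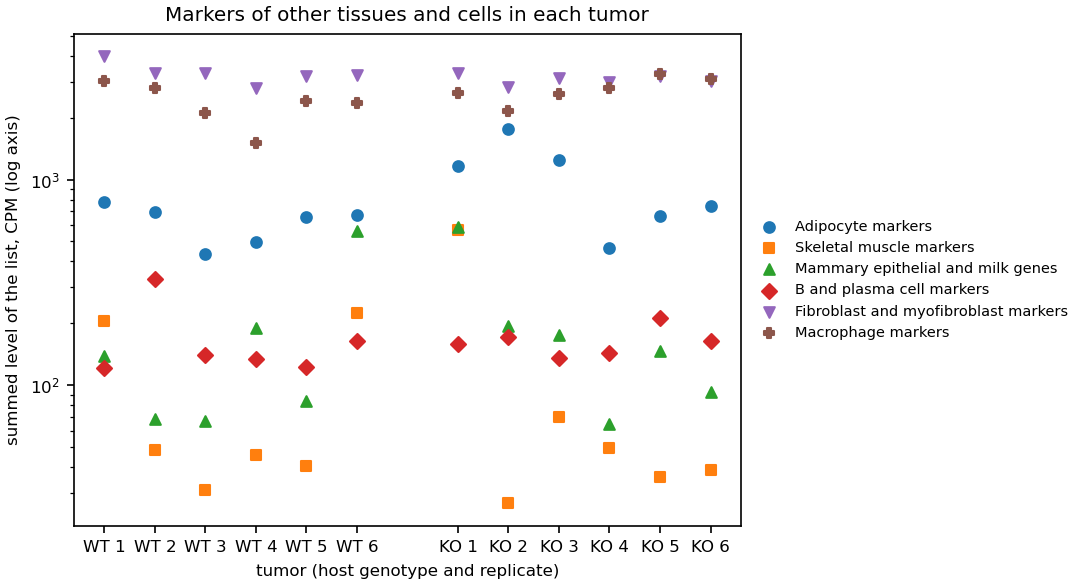
The summed level of 6 marker lists (CPM, log axis) is shown for each of the 12 tumors, named by host genotype and replicate. Muscle genes reach 570 CPM in KO 1 and adipocyte genes 1756 CPM in KO 2, while fibroblast and macrophage genes vary less between tumors.

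The promoters of the genes called higher held an interferon response motif more often than those of all genes. The motif, which interferon regulatory factors bind, was taken as GAAA, any 2 bases and again GAAA, and was searched on both strands from 250 bases before to 50 bases after each start in RefSeq (GRCm38.p6), which gave a promoter for 9911 of the genes tested. It was found in 29 of 202 genes called higher (14.4%), in 0 of 50 called lower and in 399 of all 9911 (4.03%), a difference that was not tested. Of the 23 interferon-induced GTPases 12 had a promoter in the table, of which 11 (91.7%) held the motif, and of 22 class I genes with a promoter 5 (22.7%) did. It was 1 of 6 motifs searched, not all of which are reported here. CCAAT, the box of the factor NF-Y, was found in 43.6% of the genes called higher and 42.7% of all, in 16 of the 22 class I genes (72.7%) and in 3 of the 12 GTPases, and GGGA, any base and TTTCC, the site of NF-κB, in 2.48 and 0.525%. A match is a description of letters and not of binding. The 250 bases before the start are printed for 4 genes called higher that have different roles, a guanylate-binding GTPase, a chemokine, an inhibitor of the Jak kinases and a macrophage receptor, with the interferon motif or its reverse complement in capitals, and for *Mmp11*, a matrix protease gene called lower that holds none.
Gbp2b (chr3:142594597-142594846, plus strand): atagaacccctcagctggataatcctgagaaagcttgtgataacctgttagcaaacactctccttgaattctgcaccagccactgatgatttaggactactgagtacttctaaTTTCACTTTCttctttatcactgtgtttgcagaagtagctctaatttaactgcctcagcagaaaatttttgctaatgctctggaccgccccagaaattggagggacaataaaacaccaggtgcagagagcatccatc
Cxcl10 (chr5:92348890-92349139, minus strand): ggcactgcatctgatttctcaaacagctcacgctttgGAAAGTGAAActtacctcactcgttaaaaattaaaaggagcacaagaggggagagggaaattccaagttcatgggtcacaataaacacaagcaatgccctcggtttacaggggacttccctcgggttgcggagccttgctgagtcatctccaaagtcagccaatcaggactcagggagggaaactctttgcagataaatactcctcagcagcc
Socs1 (chr16:10785537-10785786, minus strand): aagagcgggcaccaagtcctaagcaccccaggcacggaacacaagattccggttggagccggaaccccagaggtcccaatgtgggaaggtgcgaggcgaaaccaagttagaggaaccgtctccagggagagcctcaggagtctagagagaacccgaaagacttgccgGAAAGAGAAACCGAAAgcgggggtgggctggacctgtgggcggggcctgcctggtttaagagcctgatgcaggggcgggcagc
Slamf8 (chr1:172590569-172590818, minus strand): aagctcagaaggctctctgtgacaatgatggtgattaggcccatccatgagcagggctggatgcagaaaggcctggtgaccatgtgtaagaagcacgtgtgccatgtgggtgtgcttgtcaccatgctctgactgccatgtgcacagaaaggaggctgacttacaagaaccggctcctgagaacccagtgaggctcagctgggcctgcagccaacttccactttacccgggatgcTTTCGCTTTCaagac
Mmp11 (chr10:75932503-75932752, minus strand): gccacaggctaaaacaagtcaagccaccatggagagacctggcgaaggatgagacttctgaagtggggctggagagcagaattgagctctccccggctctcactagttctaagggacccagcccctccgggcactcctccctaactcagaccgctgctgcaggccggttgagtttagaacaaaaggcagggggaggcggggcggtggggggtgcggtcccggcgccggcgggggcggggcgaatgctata

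In tumors from KO hosts *Clic4* itself was at 65.3 ± 4.04 FPKM (SD, n = 6), which is 84.2% of the 77.5 ± 2.66 FPKM (SD, n = 6) in tumors from WT hosts. The values ran from 58.9 to 69.0 FPKM and from 74.7 to 82.2 FPKM, so the groups did not overlap. In mean log2(FPKM + 1) the difference was -0.25, and an exact permutation test, two-sided, gave p = 0.00216, below which 6 and 6 tumors cannot go. The gene was called lower by edgeR as well (log2 fold change -0.21, SE 0.05, FDR 0.033) and passed in 4 of the 12 fits without 1 tumor. The paper states that the knockout removes only part of the gene, and that KO lungs still gave reads from the rest. How the *Clic4* reads of a tumor divide between host and cancer cells was not tested. *Clic1*, a paralog, was not called (log2 fold change 0.13, SE 0.07, FDR 0.414). Of 231 genes tested within 10 Mb of *Clic4* on chromosome 4, 9 (3.9%) were called in either direction, where the share over all genes was 2.45%. Those called higher were *Fuca1*, *Laptm5*, *Ptafr*, *Rnf19b*, *Sdc3*, *Themis2* and *Wdtc1*, and *Pnrc2* was called lower beside *Clic4*. *Pnrc2*, which takes part in mRNA decay, was at 44.4 CPM (41 to 47.4) against 55.6 (49.8 to 58.2) in the counts, with a log2 fold change of -0.31 (FDR 0.0199). Its deposited FPKM went the other way, at 98.7 ± 87.7 (SD, n = 6) against 47.9 ± 29.7 (SD, n = 6), with a difference of 0.69 on the log2(FPKM + 1) scale that limma did not call. These 9 genes are named for their position.

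The interferon-induced genes called higher were GTPases and genes of class I antigen presentation more than antiviral effectors, a contrast between lists that was not tested. All 23 interferon-induced GTPases were called higher, with a median log2 fold change of 2.15, and so were 21 of 27 genes of class I antigen processing, with a median of 1.01. *Ifi47*, an immunity-related GTPase, was at 73 CPM (50.9 to 99.8) in tumors from KO hosts and 20.1 (11.5 to 23.4) in tumors from WT hosts (log2 fold change 2.0, SE 0.20, FDR 0.000268). *H2-K1*, a classical class I heavy chain, was at 771 CPM (647 to 993) in tumors from KO hosts and 364 (259.9 to 398) in tumors from WT hosts (log2 fold change 1.18, SE 0.12, FDR 0.000268). The groups did not overlap for either gene. Without KO 1, KO 2, WT 2 and WT 6, 8 of the 23 GTPases were called, with a median of 2.1, and 20 of the class I genes. Of 32 effectors known best from type I interferon, 1 was called, the nucleic acid sensor *Zbp1* (log2 fold change 1.6, SE 0.28, FDR 0.00965). Of the list 30 were above 0, where 47.7% of all genes were, 6 were higher and 0 lower at an unadjusted p under 0.05, and DESeq2 called 2. Its median was 0.27, ran from 0.11 to 0.43 with 1 tumor left out, and was 0.06 without the 4 tumors, where 0 were called (*Zbp1* FDR 0.0856). Of 31 subunits of the constitutive proteasome edgeR called 0, with 3 higher and 0 lower at an unadjusted p under 0.05 and 0 called by DESeq2 or limma. GTPases and class I genes form families of close copies between which reads can be divided, so single members are less certain than the families.

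Among the receptors and factors of interferon signaling, 8 of 26 were called higher. *Jak2* was at 124 CPM (103 to 132) in tumors from KO hosts and 85 (75.5 to 99.2) in tumors from WT hosts (log2 fold change 0.50, SE 0.07, FDR 0.00127). *Socs1*, which inhibits Jak kinases, was at 6.69 CPM (4.3 to 9.62) against 2.29 (1.53 to 3.02) (log2 fold change 1.5, SE 0.24, FDR 0.0018), and *Irf8*, a factor of the monocyte lineage, at 76 CPM (52.7 to 95.4) against 45.9 (37.3 to 51.1) (log2 fold change 0.72, SE 0.12, FDR 0.00441). None of these 3 overlapped between the groups, and without the 4 tumors 5 genes of the list were called. *Ubd*, a ubiquitin-like modifier, had a log2 fold change of 3.21 (FDR 0.00302) and *Batf2*, a factor of activated macrophages, of 1.67 (FDR 0.000374).

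Members of the class II, T cell and macrophage activation lists were called higher, while the list of macrophage identity markers held no call. Of 11 class II genes, 7 were called higher, with a median of 1.23. *Ciita*, the master regulator of class II genes, was at 50.5 CPM (41.3 to 66) in tumors from KO hosts and 20.6 (8.73 to 28.7) in tumors from WT hosts (log2 fold change 1.35, SE 0.22, FDR 0.00555). *H2-Eb1*, a class II chain, was at 6.9 CPM (5.5 to 9.23) against 2.66 (1.89 to 3.4) (log2 fold change 1.45, SE 0.20, FDR 0.000633), and *H2-Ab1* at 301 CPM (226 to 458) against 126 (54.3 to 181) (log2 fold change 1.43, SE 0.27, FDR 0.020). All 6 tumors from KO hosts were above all 6 from WT hosts for each. The 24 macrophage markers, of which 23 were tested, had a median of 0.28, and their sum was 2154 to 3278 CPM in tumors from KO hosts and 1513 to 3019 in tumors from WT hosts. None of the macrophage markers was at 0 in all tumors. edgeR called 0 of them, with 8 higher and 1 lower at an unadjusted p under 0.05, 1 higher and 1 lower called by DESeq2 and 0 by limma. Their part in the class II result was not tested. Without KO 1, KO 2, WT 2 and WT 6, 4 class II genes were called, with a median of 1.56.

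The macrophage markers with the smallest p went in opposite directions. *Fcrls*, a gene of resident macrophages, was at 12.5 CPM (7.38 to 25) in tumors from KO hosts and 36.6 (15.8 to 51.9) in tumors from WT hosts (log2 fold change -1.39, FDR 0.088). *C1qb*, a complement chain made by macrophages, was at 159 CPM (109 to 212) against 97.9 (53.1 to 124) (log2 fold change 0.73, FDR 0.0884), so neither passed and both overlapped between the groups. Of 12 genes of classical macrophage activation, 4 were called higher, the chemokines *Cxcl9* and *Cxcl10* and the regulators *Irf5* (log2 fold change 0.57, SE 0.11, FDR 0.00695) and *Socs3* (log2 fold change 0.73, SE 0.13, FDR 0.00555). Of 13 genes of alternative activation edgeR called 0, with 4 higher and 0 lower at an unadjusted p under 0.05, 1 higher called by DESeq2 and 0 by limma, and it called 1 higher with GC offsets and 1 in the fit without the 4 tumors. The list medians were 0.67 for classical and 0.61 for alternative activation, and the difference between the lists was not tested. *Clec10a*, a lectin of alternatively activated macrophages, missed the limit with an FDR of 0.0546 and a log2 fold change of 0.82.

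Of 20 T cell markers, 4 were called higher, and the median log2 fold change of the list was 0.79. *Zap70*, the kinase of the T cell receptor, was at 2.86 CPM (2.39 to 4.31) in tumors from KO hosts and 1.1 (0.604 to 1.54) in tumors from WT hosts (log2 fold change 1.48, SE 0.27, FDR 0.00495). *Cd3g*, a receptor chain, was at 6.45 CPM (4.43 to 8.02) against 2.67 (0.604 to 4.05) (log2 fold change 1.31, SE 0.31, FDR 0.0319). The groups did not overlap for *Zap70* or *Cd3g*, but these are few counts, and the costimulator *Icos* (log2 fold change 1.02, SE 0.25, FDR 0.0422) overlapped. The summed level of the T cell list was 118 to 177 CPM in tumors from KO hosts and 64.3 to 178 in tumors from WT hosts, which overlapped. *Cd8a* and *Cd4* were not called, with log2 fold changes of 1.14 (FDR 0.314) and 0.66 (FDR 0.326). Of 12 cytotoxic and NK genes, 3 were called higher, *Nkg7* (log2 fold change 1.35, SE 0.26, FDR 0.00852), *Il2rb* (log2 fold change 0.70, SE 0.16, FDR 0.0276) and the activating receptor gene *Klrk1* (log2 fold change 1.18, SE 0.27, FDR 0.0314), while *Ncr1*, which defines NK cells, was at 0.20 (FDR 0.814). In the fits without 1 tumor, *Cd3g* passed in 5 of 12, *Icos* in 2, *Il2rb* in 7 and *Klrk1* in 3, and *Il2rb* and *Klrk1* overlapped between the groups. Without the 4 tumors, 5 T cell markers and 1 of the NK genes were called.

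Ligands that draw or restrain T cells were also called higher. Of 19 chemokines, 5 were called higher. *Cxcl9*, a ligand of Cxcr3, a receptor on T cells, was at 84.7 CPM (48.3 to 165) in tumors from KO hosts and 6.5 (3.07 to 30.4) in tumors from WT hosts (log2 fold change 3.28, SE 0.53, FDR 0.00845), and the monocyte attractant *Ccl2* at 87.7 CPM (73.8 to 104) against 51.4 (42.2 to 62.5) (log2 fold change 0.78, SE 0.11, FDR 0.00112). Of 16 checkpoint genes, 4 were called higher. *Pdcd1lg2*, the second ligand of the receptor PD-1, was at 15.3 CPM (11.7 to 21.2) against 2.67 (1.93 to 5.99) (log2 fold change 2.16, SE 0.26, FDR 0.000364), with separate groups. *Cd274*, the first ligand, had a log2 fold change of 1.73 (FDR 0.0058) and *Pdcd1*, the receptor, of 1.86 (FDR 0.018). *Ido1*, which breaks down tryptophan, was at 8.61 CPM (6.31 to 25.8) against 1.87 (0.964 to 2.55) (log2 fold change 2.87, SE 0.43, FDR 0.00285). Without the 4 tumors, 4 chemokines and 2 checkpoint genes, *Pdcd1lg2* and *Ido1*, were called, and *Cd274* was not (FDR 0.0914).

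*Slamf8* and leukocyte integrin chains were also called higher. *Slamf8*, a receptor that restrains the oxidative burst of macrophages, was at 11.2 CPM (5.88 to 14.3) in tumors from KO hosts and 2.37 (0.771 to 3.06) in tumors from WT hosts (log2 fold change 2.33, SE 0.30, FDR 0.000439). *Itgal*, the α chain of the leukocyte integrin LFA-1, was at 36.4 CPM (27.9 to 47.4) against 17.4 (8.49 to 19.2) (log2 fold change 1.21, SE 0.17, FDR 0.00123), and *Itgad*, another leukocyte α chain, at 5.92 CPM (4.23 to 6.85) against 1.86 (1.42 to 3.23) (log2 fold change 1.45, SE 0.23, FDR 0.0018). The groups of each gene stood apart. *Icam1*, which binds LFA-1, had a log2 fold change of 1.13 (FDR 0.00123), whereas 25 integrin genes as a list held 3 calls, all of leukocyte α chains, and a median of 0.20. Of 20 NF-κB genes, 5 were called higher, with *Nfkb2* (log2 fold change 0.43, SE 0.06, FDR 0.000642) and *Birc3* (log2 fold change 0.44, SE 0.09, FDR 0.00832) among them. In the deposited FPKM *Birc3* was at 26.6 ± 3.74 against 25 ± 3.31 (SD, n = 6 each), and limma did not call it (FDR 0.774). Of 25 cell death genes, 5 were called higher, including the death ligand *Tnfsf10* (log2 fold change 1.6, SE 0.20, FDR 0.000364), the inflammatory caspase *Casp4* (log2 fold change 0.72, SE 0.15, FDR 0.0165) and the inflammasome sensor *Nlrp3* (log2 fold change 0.82, SE 0.19, FDR 0.0268), whose groups overlapped and which passed in 6 of the 12 fits. Of 21 complement genes 1 was called, the protease *C1ra* (log2 fold change 0.71, SE 0.12, FDR 0.00427), with a list median of 0.55. Of the complement list 15 were higher and 0 lower at an unadjusted p under 0.05, and DESeq2 called 7 higher and limma 1. Without the 4 tumors, 1 cell death gene was called.

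Other genes with a small p encode proteins of various roles. *Sema4a*, a semaphorin that also acts on T cells, was at 32.4 CPM (30.7 to 36.1) in tumors from KO hosts and 16.5 (13.3 to 22) in tumors from WT hosts (log2 fold change 0.97, SE 0.11, FDR 0.000268). *F10*, which encodes coagulation factor X, was at 18.3 CPM (16.5 to 24.9) against 7.82 (6.55 to 10.9) (log2 fold change 1.25, SE 0.15, FDR 0.000328). *Tgm2*, a transglutaminase that crosslinks matrix proteins, was at 464 CPM (411 to 570.5) against 301 (256 to 331) (log2 fold change 0.66, SE 0.08, FDR 0.000374). Each of them had all KO tumors above all WT tumors. The phospholipase gene *Pla2g16* (log2 fold change 1.36, SE 0.16, FDR 0.000362) and *Samhd1*, a nucleotide hydrolase that restricts viruses (log2 fold change 0.91, SE 0.11, FDR 0.000364), did so as well.

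**Figure D3:**
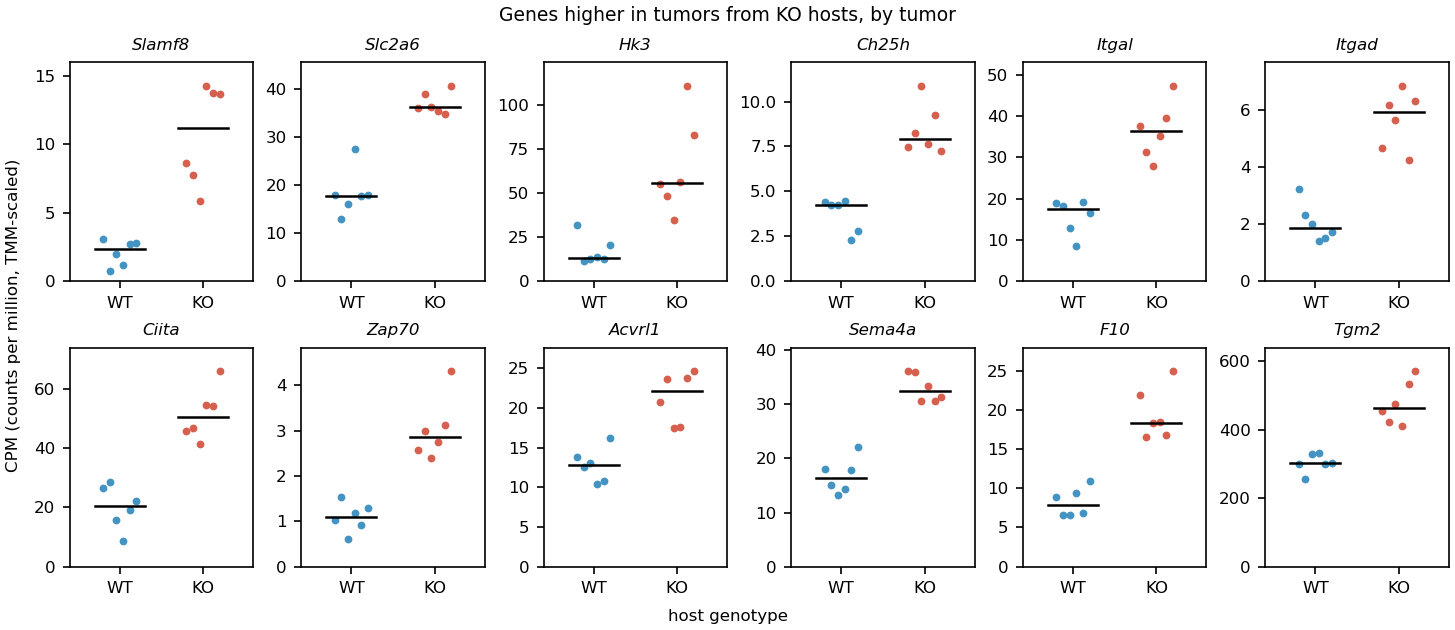
The level in each tumor (CPM, TMM-scaled) is plotted for 12 genes called higher, with 6 WT and 6 KO tumors a panel and the median as a bar. All KO points lie above all WT points in each panel, for example from 34.8 CPM against at most 27.6 CPM for Slc2a6.

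Each metabolic list held at most 3 calls, where 1.95% of all genes tested were called higher and 0.499% lower. Of 26 glycolysis genes 1 was called higher, *Hk3*, the hexokinase of leukocytes, at 55.4 CPM (34.4 to 111) in tumors from KO hosts and 13.1 (11.2 to 31.6) in tumors from WT hosts (log2 fold change 1.92, SE 0.34, FDR 0.0134). *Slc2a6*, a sugar transporter, was at 36.2 CPM (34.8 to 40.8) against 17.8 (12.9 to 27.6) (log2 fold change 1.02, SE 0.13, FDR 0.000424). Both genes had separate groups, while the glycolysis list had a median of 0.10 and 22 of 26 members above 0. Without the 4 tumors 0 of the glycolysis list were called. Of 32 genes of reactive oxygen, 3 were called higher, the oxidase subunit gene *Cyba* (log2 fold change 0.93, SE 0.14, FDR 0.0014), the mitochondrial superoxide dismutase gene *Sod2* (log2 fold change 0.53, SE 0.08, FDR 0.0018) and the extracellular one, *Sod3* (log2 fold change 0.75, SE 0.17, FDR 0.0313). *Ass1*, which makes argininosuccinate for the reuse of citrulline, was at 66.9 CPM (55.4 to 96) against 48 (45.6 to 59.6) (log2 fold change 0.48, SE 0.12, FDR 0.0482). The groups of *Ass1* and *Sod3* overlapped, and in the fits without 1 tumor *Ass1* passed in 3 of 12 and *Sod3* in 4.

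In sterol metabolism, *Ch25h*, which oxidises cholesterol, was at 7.94 CPM (7.23 to 10.9) in tumors from KO hosts and 4.23 (2.27 to 4.48) in tumors from WT hosts (log2 fold change 1.18, SE 0.19, FDR 0.00269). *Nr1h3*, the liver X receptor α, was at 9.65 CPM (6.53 to 12.1) against 4.79 (2.78 to 5.98) (log2 fold change 1.02, SE 0.21, FDR 0.0127). *Mvd*, an enzyme of the mevalonate pathway, was at 6.88 CPM (5.17 to 9.17) against 4.04 (2.89 to 5.09) (log2 fold change 0.78, SE 0.19, FDR 0.0415). None of these 3 overlapped between the groups, and *Mvd* passed in 4 of the 12 fits without 1 tumor. Of 27 genes of cholesterol synthesis and uptake *Mvd* was the one called, and 21 were above 0, where 47.7% of all genes were, with a median of 0.20. Of 23 fatty acid synthesis genes edgeR called 0 at a median of 0.22, with 2 higher and 0 lower at an unadjusted p under 0.05, 1 higher called by DESeq2 and 0 by limma. *Acsl1*, a fatty acid ligase abundant in fat cells, was at 72.2 CPM (33.5 to 126) against 35 (27.8 to 60.7) (log2 fold change 0.92, FDR 0.151), and the adipocyte markers lay above 0 beside it. Of the 15 adipocyte markers tested, 15 were above 0 and 0 were called by edgeR (6 with an unadjusted p under 0.05, 2 by DESeq2, 0 by limma), none was at 0 in all tumors, and their sum was 462 to 1756 CPM in tumors from KO hosts and 432 to 779.7 in tumors from WT hosts. The part of fat tissue in the lipid genes was not tested.

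The respiratory chain showed no called gene. Of 76 nuclear genes of the chain edgeR called 0, with 6 higher and 1 lower at an unadjusted p under 0.05 and 0 called by DESeq2 or limma. *Ndufa3*, a subunit of complex I, was at 17.1 CPM (15.6 to 21) against 13.4 (11.9 to 14.8), with separate groups but an FDR of 0.0629. Their median was 0.06, and that of 12 genes of the mitochondrial genome was -0.17, with 1 at an unadjusted p under 0.05 and 0 called by edgeR, DESeq2 or limma. For 31 genes of the citric acid cycle edgeR called 0, with 1 higher and 2 lower at an unadjusted p under 0.05 and 0 called by DESeq2 or limma. For 23 genes of fatty acid oxidation edgeR called 0, with 1 higher and 1 lower at an unadjusted p under 0.05 and 0 called by DESeq2 or limma. For 25 hypoxia targets edgeR called 0, with 2 higher and 1 lower at an unadjusted p under 0.05 and 0 called by DESeq2 or limma. *Pfkfb3*, a driver of glycolysis in hypoxia, was at 61.8 CPM (47 to 83.9) against 48 (47.2 to 51.1) (log2 fold change 0.39, FDR 0.135).

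**Figure D4:**
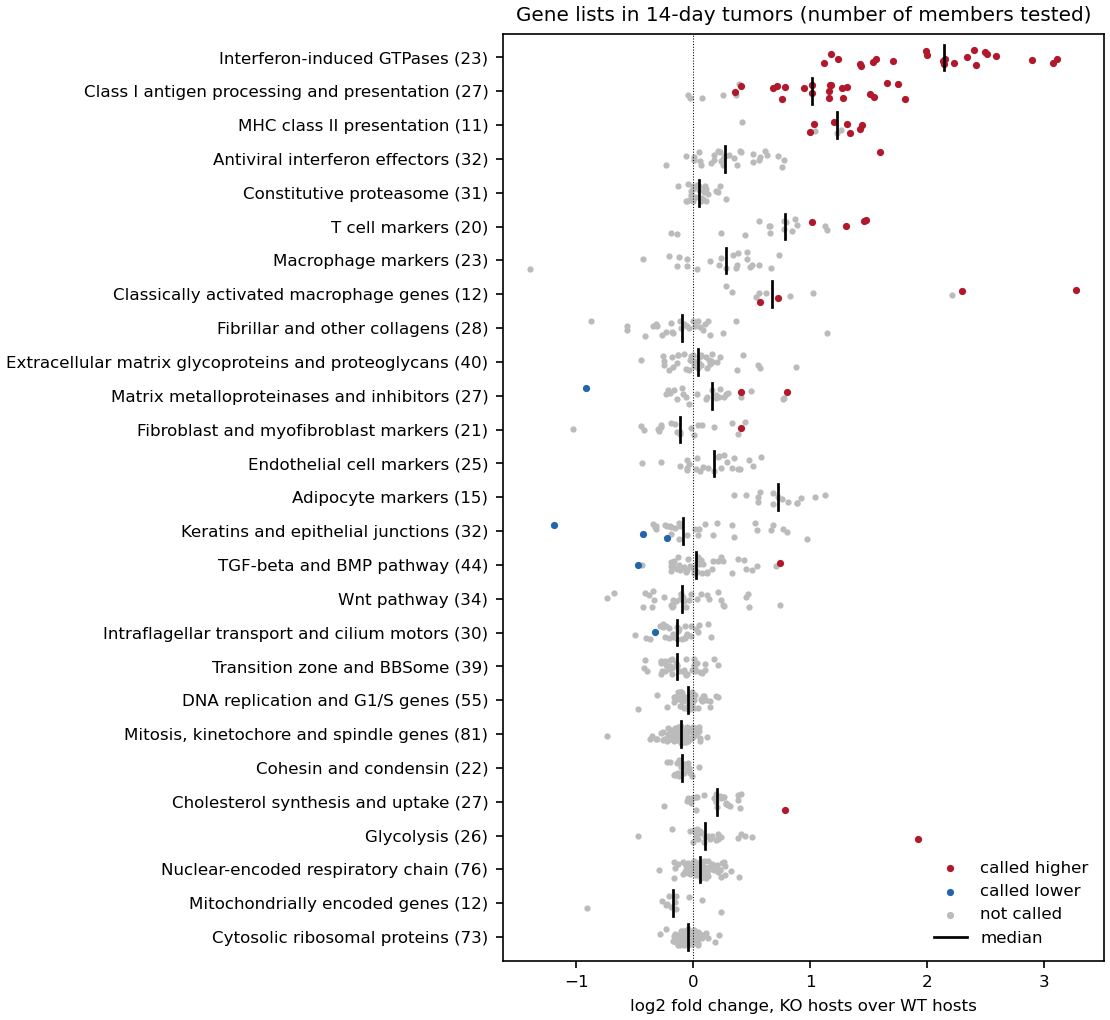
Each point is the log2 fold change of 1 tested member of 27 gene lists, colored where edgeR called it, and a black bar marks the median of the list. Interferon GTPases center at 2.15 and class I genes at 1.01, while the medians of the collagen (-0.09), endothelial (0.18), mitosis (-0.11) and respiratory chain (0.06) lists lie near 0.

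In the stroma, most matrix lists and the endothelial list held no call. Of 28 collagen genes edgeR called 0, with 0 higher and 3 lower at an unadjusted p under 0.05, 1 lower called by DESeq2 and 0 by limma. Their median was -0.09, and their summed level, 8719 to 14944 CPM in tumors from KO hosts and 8697 to 15382 in tumors from WT hosts, overlapped between the groups. *Col8a1*, a short-chain collagen of vessel walls, was at 36.7 CPM (31.3 to 47.9) against 80.1 (35.3 to 99.2) (log2 fold change -0.87, FDR 0.127), and *Col18a1* of basement membranes at 353 CPM (259 to 386) against 423 (323 to 557) (log2 fold change -0.34, FDR 0.183). Both overlapped. Of 40 matrix glycoproteins and proteoglycans edgeR called 0, with 3 higher and 0 lower at an unadjusted p under 0.05 and 0 called by DESeq2 or limma. Of 22 collagen processing enzymes edgeR called 0, with 0 higher and 2 lower at an unadjusted p under 0.05 and 0 called by DESeq2 or limma.

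Matrix proteases had calls in both directions. *Mmp11*, a stromelysin of tumor fibroblasts, was at 7.0 CPM (6.53 to 9.98) in tumors from KO hosts and 15.1 (7.79 to 19.5) in tumors from WT hosts (log2 fold change -0.92, SE 0.20, FDR 0.0165). *Timp1*, an inhibitor of these proteases, was at 115 CPM (93.3 to 136) against 84.1 (70.4 to 101) (log2 fold change 0.41, SE 0.10, FDR 0.0402), and *Adam8*, a protease of leukocytes, at 129 CPM (80.7 to 196) against 77 (62.7 to 90.9) (log2 fold change 0.80, SE 0.19, FDR 0.0491). The groups overlapped for all 3, and in the fits without 1 tumor *Mmp11* passed in 10 of 12, *Timp1* in 4 and *Adam8* in 1. Of the list, DESeq2 called 4 higher and 1 lower, and limma 0. With GC offsets 0 were called higher and 1 lower, and without the 4 tumors 2 were called higher and 0 lower. *Serpine2*, an inhibitor of thrombin and plasminogen activators, was at 47.4 CPM (40.1 to 72) against 89.1 (62.9 to 131) (log2 fold change -0.83, SE 0.19, FDR 0.0387) and passed in 2 of the 12 fits. Its groups overlapped too. Among the other serpins, 4 of 19 on the list were called higher, all in the Serpina3 cluster, including *Serpina3f* at 30.5 CPM (22.5 to 38.5) against 5.14 (3.22 to 10.5) (log2 fold change 2.33, SE 0.25, FDR 0.000328).

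Of 21 fibroblast markers 1 was called, *Ly6c1* (log2 fold change 0.41, SE 0.09, FDR 0.027), a surface antigen that endothelial cells and monocytes also carry, which passed in 7 of the 12 fits, and the list median was -0.11. The summed fibroblast level was 2836 to 3299 CPM in tumors from KO hosts and 2804 to 3989 in tumors from WT hosts. Of 25 endothelial markers edgeR called 0, with 4 higher and 1 lower at an unadjusted p under 0.05 and 0 called by DESeq2 or limma. *Pecam1*, the endothelial marker CD31, had a log2 fold change of 0.18 (SE 0.11, FDR 0.465), and *Cdh5*, the endothelial cadherin, of -0.11 (SE 0.15, FDR 0.801). *Apln*, a ligand of sprouting vessels, was at 23.3 CPM (13.9 to 27.8) against 31.8 (23.8 to 34.4) (FDR 0.152). Of 29 angiogenic ligands and receptors edgeR called 0, with 1 higher and 1 lower at an unadjusted p under 0.05 and 0 called by DESeq2 or limma.

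The TGF-β and BMP pathway had 1 call in each direction among 44 genes. *Acvrl1*, a receptor of endothelial cells for BMP ligands, was at 22.2 CPM (17.4 to 24.6) in tumors from KO hosts and 12.8 (10.4 to 16.3) in tumors from WT hosts (log2 fold change 0.74, SE 0.13, FDR 0.00433), with separate groups. *Bmp7*, a ligand, was at 17.1 CPM (14.6 to 23.3) against 25.1 (23.5 to 26.1) (log2 fold change -0.47, SE 0.11, FDR 0.027), also separate, and passed in 5 of the 12 fits without 1 tumor. At an unadjusted p under 0.05, 7 of the pathway were higher and 9 lower, and the median was 0.03, where that of all genes was -0.01. In the limma fit of log2(FPKM + 1) the median of the pathway was -0.02 and that of all genes -0.05. Among 15 mesenchymal transition factors 1 was called, *Zeb2* (log2 fold change 0.33, SE 0.08, FDR 0.0407), a repressor of epithelial genes that macrophages also use, which passed in 5 of the 12 fits. Of 34 Wnt genes edgeR called 0, with 1 higher and 5 lower at an unadjusted p under 0.05 and 0 called by DESeq2 or limma. Of 24 Notch genes edgeR called 0, with 2 higher and 4 lower at an unadjusted p under 0.05 and 0 called by DESeq2 or limma. Of 12 Hedgehog genes edgeR called 0, with 0 higher and 3 lower at an unadjusted p under 0.05 and 0 called by DESeq2 or limma.

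Of the 69 genes called lower, 64 fell by less than 2-fold. *Pvrl3*, a nectin of cell contacts, had the smallest p of the genes called lower, at 22.8 CPM (17.8 to 27.2) in tumors from KO hosts and 35.9 (31.8 to 40.7) in tumors from WT hosts (log2 fold change -0.68, SE 0.11, FDR 0.00287). *Ppl*, which encodes the desmosomal linker periplakin, was at 85.8 CPM (62 to 91.4) against 111 (93.5 to 120.1) (log2 fold change -0.43, SE 0.09, FDR 0.018). Neither gene overlapped between the groups. *Ocln*, the tight junction protein occludin, was at 5.92 CPM (2.83 to 10.4) against 12.8 (9.2 to 21.6) (log2 fold change -1.19, SE 0.26, FDR 0.0238), and *Tjp1*, the scaffold ZO-1, at 233 CPM (218 to 259) against 278 (247 to 296) (log2 fold change -0.23, SE 0.06, FDR 0.0473). Both overlapped, and *Tjp1* passed in 2 of the 12 fits without 1 tumor. *Ppl*, *Ocln* and *Tjp1* were the 3 calls among 32 keratin and junction genes, whose median of -0.09 rose to 0.05 without 1 tumor. *Krt8* was not called (log2 fold change -0.19, FDR 0.284), nor was *Krt18* (-0.24, FDR 0.146), while *Epcam* was at 0.67 (FDR 0.636). *Epcam* had 114 counts in KO tumor 5, 108 in KO tumor 2 and 104 in WT tumor 6, against 12 to 57 in the other tumors, and the part of normal epithelium in the junction genes was not tested. Without the 4 tumors, 1 of the keratin and junction genes was called lower.

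Among the other genes called lower, *Agap1*, a GTPase-activating protein of Arf, was at 80.1 CPM (70.7 to 84.2) in tumors from KO hosts and 97.3 (92.8 to 106) in tumors from WT hosts (log2 fold change -0.34, SE 0.06, FDR 0.00555). *Camkk1*, a kinase that responds to calcium, was at 7.8 CPM (6.42 to 10.8) against 13.5 (12.2 to 18.6) (log2 fold change -0.81, SE 0.15, FDR 0.00622). *Limch1*, a regulator of non-muscle myosin, was at 5.06 CPM (4.0 to 5.64) against 8.8 (5.83 to 12.6) (log2 fold change -0.84, SE 0.18, FDR 0.0158). These 3 genes had separate groups. *Tln2*, the talin that links integrins to actin, had a log2 fold change of -0.41 (FDR 0.0186), the phosphatase gene *Ppm1f* of -0.39 (FDR 0.00757), and *Ptk7*, a receptor of planar cell polarity, of -0.37 (FDR 0.0165). *Cd109*, a surface protein that restrains TGF-β receptors, was at 209 CPM (159 to 216) against 252 (242 to 336) (log2 fold change -0.44, SE 0.10, FDR 0.0191). *Ank*, which exports pyrophosphate, had a log2 fold change of -0.39 (FDR 0.00595), and *Impad1*, a phosphatase of the Golgi, of -0.26 (FDR 0.00943).

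The 5 genes that fell by more than 2-fold were low to moderate in level. *Mfap3l*, a membrane protein, was at 5.13 CPM (2.75 to 11.9) in tumors from KO hosts and 14.2 (10.4 to 20.5) in tumors from WT hosts (log2 fold change -1.4, SE 0.27, FDR 0.0108). *Glt8d2*, a member of the glycosyltransferase families, was at 1.24 CPM (0.923 to 2.35) against 3.7 (1.92 to 4.92) (log2 fold change -1.46, SE 0.29, FDR 0.0108). *St6galnac3*, a sialyltransferase, was at 2.41 CPM (1.31 to 3.73) against 6.02 (2.57 to 9.64) (log2 fold change -1.34, SE 0.31, FDR 0.0261). The groups overlapped for each, and the other 2 were *Ocln* and the pseudogene *Gm38317* (log2 fold change -1.52, FDR 0.0263). All 12 fits without 1 tumor called *Mfap3l* and *Glt8d2* lower, while 4 called *St6galnac3* and 5 called *Gm38317*.

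**Figure D5:**
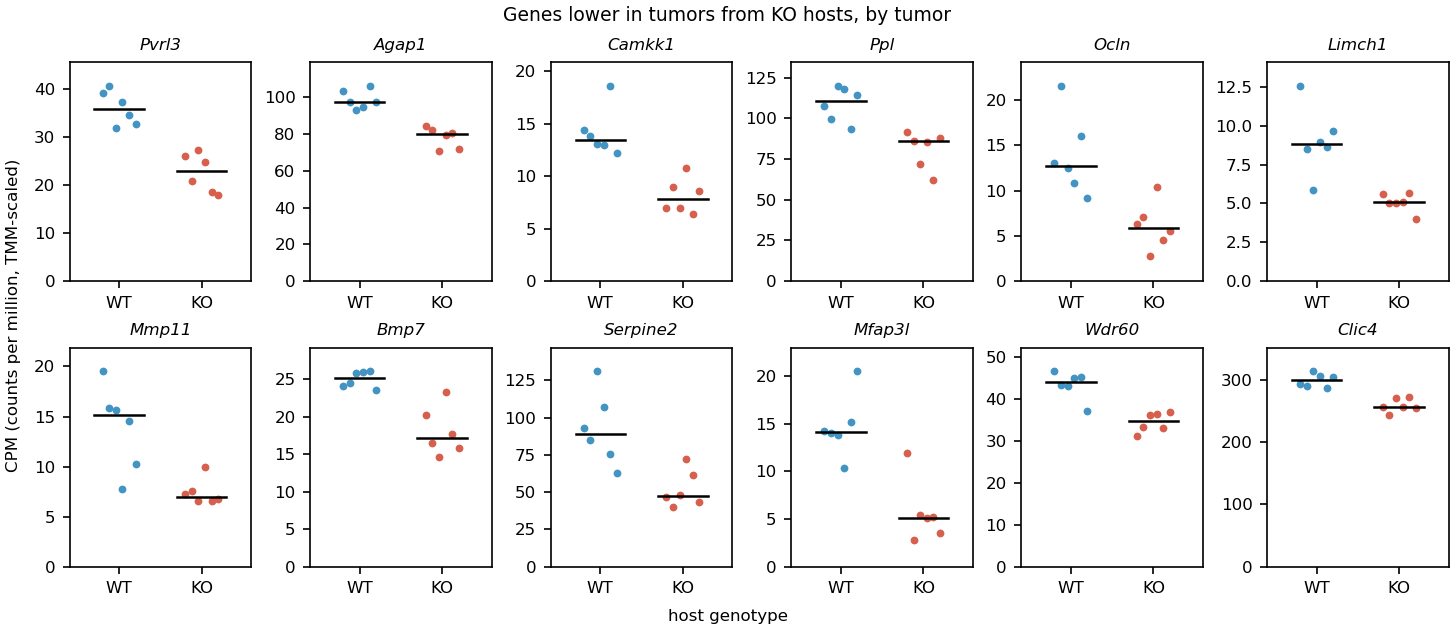
The level in each tumor (CPM, TMM-scaled) is plotted for 12 genes called lower, with 6 WT and 6 KO tumors a panel and the median as a bar. The groups separate for Pvrl3 (at most 27.2 CPM in KO against at least 31.8 in WT), while Ocln, Mmp11, Serpine2 and Mfap3l overlap.

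Some of the genes called lower kept a nearly fixed ratio to one another from tumor to tumor. *Ccrn4l*, which encodes the clock-controlled protein nocturnin, was at 1455 CPM (1158 to 1590.1) in tumors from KO hosts and 1874 (1649 to 1999.8) in tumors from WT hosts (log2 fold change -0.38, SE 0.07, FDR 0.00852). For 13 of the other genes called lower, the highest ratio to *Ccrn4l* in the 12 tumors was less than 1.3 times the lowest, which held for 27 of all genes tested. *RP24-390N7.1* on chromosome 5 stayed at 1.57 to 1.71 times the CPM of *Ccrn4l*, and *Gm29084* on chromosome 1 at 0.697 to 0.771 times. *Slc38a6*, an amino acid transporter family member on chromosome 12, stayed at 0.766 to 0.851 times. *Ctnnal1*, an α-catenin-like gene on chromosome 4, stayed at 0.0536 to 0.0607 times. *Slc29a1*, a nucleoside transporter, *Ncl*, the nucleolar protein nucleolin, and *Ank*, named above among the genes called lower, were also in this set. The log2 fold changes of the set ran from -0.46 to -0.31. Whether the 14 counts, *Ccrn4l* included, share reads was not tested. The set was looked for after the values were seen, and *Slc38a6*, *Ctnnal1* and *Slc29a1* were named from it outside the rule used for other genes.

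Proliferation lists held no call, with medians slightly below 0. Of 81 mitosis, kinetochore and spindle genes edgeR called 0, with 0 higher and 6 lower at an unadjusted p under 0.05 and 0 called by DESeq2 or limma. Of these, 11 were above 0, where 47.7% of all genes were, with a median of -0.11 that was -0.14 in the limma fit of log2(FPKM + 1) and -0.09 with GC offsets, and ran from -0.16 to -0.05 with 1 tumor left out. Their summed level was 3109 to 3723 CPM in tumors from KO hosts and 3079.6 to 4349 in tumors from WT hosts, so the groups overlapped. *Cenpk*, a kinetochore subunit, had the smallest p, at 1.68 CPM (1.4 to 3.05) against 3.5 (2.62 to 3.85) (log2 fold change -0.74, FDR 0.134). Of 55 DNA replication and G1/S genes edgeR called 0, with 0 higher and 3 lower at an unadjusted p under 0.05 and 0 called by DESeq2 or limma. *Ccne2*, a cyclin of S phase entry, was at 13.9 CPM (10.3 to 18.6) against 18.1 (14.6 to 25.6) (log2 fold change -0.47, FDR 0.145).

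Of 22 cohesin and condensin genes, 1 was above 0 and edgeR called 0, with 0 higher and 4 lower at an unadjusted p under 0.05 and 0 called by DESeq2 or limma. *Rad21*, the cohesin subunit cleaved at anaphase, was at 175 CPM (166 to 179.7) against 189 (180.3 to 203), with separate groups but a log2 fold change of -0.14 and an FDR of 0.175. In the Myc and growth list of 29 genes, 1 was called lower, *Ncl*, at 299.6 CPM (287 to 377) against 385 (348 to 436) (log2 fold change -0.32, SE 0.07, FDR 0.0261), and the list median was -0.14. *Ncl* passed in 4 of the 12 fits without 1 tumor. Of 73 ribosomal protein genes edgeR called 0, with 1 higher and 5 lower at an unadjusted p under 0.05, 1 lower called by DESeq2 and 0 by limma. Of 50 DNA repair genes edgeR called 0, with 1 higher and 4 lower at an unadjusted p under 0.05 and 0 called by DESeq2 or limma. With GC offsets edgeR called 1 of them higher. Cancer cells and host cells were not separated in these samples.

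For the primary cilium, 1 of 30 genes of intraflagellar transport was called, with 0 higher and 7 lower at an unadjusted p under 0.05, 2 lower called by DESeq2 and 0 by limma, and the list medians were below 0. *Wdr60*, an intermediate chain of the dynein that returns cargo from the cilium tip, was at 34.8 CPM (31.2 to 36.9) in tumors from KO hosts and 44.2 (37.2 to 46.7) in tumors from WT hosts (log2 fold change -0.33, SE 0.08, FDR 0.0277). Its groups did not overlap. It was not called without the 4 tumors (FDR 0.0849), and it passed in 4 of the 12 fits without 1 tumor. The transport list had 5 members above 0 and a median of -0.14, which was -0.19 in the limma fit of log2(FPKM + 1) and -0.12 with GC offsets, and ran from -0.20 to -0.12 with 1 tumor left out. Of 39 genes of the transition zone and BBSome edgeR called 0, with 0 higher and 5 lower at an unadjusted p under 0.05 and 0 called by DESeq2 or limma. *Inpp5e*, a phosphatase that sets the lipid content of the ciliary membrane, was at 25.2 CPM (22.6 to 27.7) against 29.4 (27.4 to 32.9) (log2 fold change -0.24, FDR 0.171). Of 36 centriole and basal body genes edgeR called 0, with 0 higher and 4 lower at an unadjusted p under 0.05 and 0 called by DESeq2 or limma. Of 32 genes of motile cilia, 4 had enough counts for a test and edgeR called 0, with 1 at an unadjusted p under 0.05 and 0 by DESeq2 or limma.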

How the data were processed

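RNA of 12 snap-frozen tumors was sequenced from stranded paired-end libraries. Per the submitters' processing notes, the authors used STAR and RSEM with the mm10 genome. The deposited tables hold, for each gene, the expected counts that RSEM estimated and that the authors did not normalize, and a second table in which the authors scaled them by gene length and library size to FPKM. RSEM divides reads among similar genes, which bears on gene families.

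Expected counts were rounded to whole numbers. Genes were kept with the default filter of edgeR (4.0.16, R 4.3.3), scaled by TMM and tested with its robust quasi-likelihood test, 6 against 6, with Benjamini-Hochberg adjustment (FDR) and a limit of 0.05. CPM values are TMM-scaled. On simulated counts for 13709 genes, of which 200 were changed, the test recovered 95% of 2-fold and 98% of 4-fold changes, and 1.03% of its calls were false. The changed genes were drawn from the more abundant ones and set at 2- or 4-fold, with noise independent between genes. The rates do not cover smaller changes, genes of low level or tissue content that genes share. Alternatives were DESeq2 1.42.0, limma 3.58.1 on log2(FPKM + 1), other scalings and filters, GC offsets, the replicate number as a block and each tumor left out. The set without 4 tumors was chosen after seeing the data, and part of what it was chosen on is not reported here. The *Clic4* level was tested by an exact permutation test, and the counts of genes within 10 Mb of *Clic4* and the promoter motifs are descriptions. No pair of tumors from hosts of the same genotype had counts that agreed within sampling noise.

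The members, the 68 gene lists and the named genes were chosen with earlier results of these data known. Genes are named by rule: Clic family members, for each list the 4 called members with the smallest p in each direction or else the 2 with the smallest p, the 25 smallest p in each direction, genes lower by 2-fold, the 10 largest folds in each direction, and defining markers of cell types. The labels number the tumors and name neither animals nor litters, so p-values measure the spread between these tumors. Same-numbered tumors of the 2 groups did not deviate together, with correlations of -0.24 to 0.13. Whether they shared a litter or a processing batch was not tested.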

Additional observations from a re-analysis of the deposited data

Results flagged for a closer look

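In 7 of 288 groups of 6 tumors, 1 tumor stood apart from the other 5 by Dixon's test at the 95% level, and chance gives about 1 in 20 such groups. WT tumor 6 stood apart 3 times. Its *Acaa1a* level, a gene of fatty acid oxidation, was 37.21 CPM against 31.8 to 32.6 in the other tumors from WT hosts. Its *Sod3* level was 37.86 CPM against 16.8 to 22.8, and its *Wdr60* level was 37.21 CPM against 43.1 to 46.7. The same tumor held 224 counts of *Csn2*. KO tumor 4 was high in 2 genes called lower, *Mmp11* at 9.977 CPM against 6.53 to 7.56 and *Ncl* at 377.4 CPM against 287 to 314. *Cd109* was lowest in KO tumor 2, at 159.2 CPM against 193 to 216, and *Limch1* was lowest in KO tumor 6, at 3.999 CPM against 5.0 to 5.64.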

How the results depend on the processing

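The genes called higher were steadier than those called lower. Against 270 higher, DESeq2 called 425, limma on log2(FPKM + 1) 171, an FDR of 0.25 with a 1.5-fold change 416 and an FDR of 0.01 137, and leaving out 1 tumor gave 167 (without WT 5) to 329 (without WT 6). Against 69 lower, DESeq2 called 120, limma 26, an FDR of 0.01 10 and the set without 4 tumors 23, and leaving out 1 tumor gave 19 (without WT 5) to 119 (without WT 6), with 30 without KO 5, 37 without KO 6, 38 without WT 2, 30 without WT 3 and 43 without WT 4. The replicate block gave 184 higher and 40 lower, and 41 lower with GC offsets added. No tumor correlated best with its own number (0 of 6), and whether the shared numbers pair tumors cannot be told from the labels. Against 5 genes lower by 2-fold, DESeq2 called 14, a minimum of 10 counts in every tumor 2, limma 2, and leaving out 1 tumor gave 2 to 12 (without KO 4). Against 7 lists with a member called lower, DESeq2 gave 12, limma 1, no filter 4, the set without 4 tumors 2, and leaving out 1 tumor 1 to 11. *Pnrc2* turned from -0.31 to 0.69 on the log2(FPKM + 1) scale. Of the 270 and the 69, limma called 160 and 22, and among the genes named it did not call *Adam8*, *Agap1*, *Ank*, *Ass1*, *Birc3*, *Bmp7*, *Clic4*, *Glt8d2*, *Gm29084*, *Icos*, *Il2rb*, *Impad1*, *Klrk1*, *Limch1*, *Ly6c1*, *Mmp11*, *Mvd*, *Ncl*, *Nlrp3*, *Ocln*, *Pnrc2*, *Ptk7*, *Serpine2*, *St6galnac3*, *Timp1*, *Tjp1*, *Wdr60* and *Zeb2*. List medians moved with 1 tumor left out for macrophage markers (0.15 to 0.35), collagens (-0.14 to -0.03), fatty acid synthesis (0.14 to 0.36), cholesterol synthesis (0.12 to 0.32), mitochondrial genes (-0.28 to -0.11), endothelial markers (0.03 to 0.25), fibroblast markers (-0.18 to -0.03), mitosis (-0.16 to -0.05), the TGF-β and BMP pathway (-0.01 to 0.04), alternative macrophage activation (0.40 to 0.74) and glycolysis (0.05 to 0.14, 0.01 in the limma fit). The cause of these shifts was not tested. The *Clic4* difference stayed between -0.26 and -0.22 on log2(FPKM + 1) with each tumor left out. No scaling moved the median of all genes by more than 0.1, and the limma fit took it from -0.01 to -0.05. Of 144 genes that could be named, 74 kept their direction and side of the limit under every alternative, and 1 reversed.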

Other observations

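Each further list of other cell types and of cell stress held at most 1 call, where 1.95% of all genes tested were called higher and 0.499% lower. Of 13 dendritic cell markers 1 was called higher, *Itgax*, an integrin chain that activated macrophages also carry, at 44.6 CPM (27.5 to 50.5) against 21.3 (14.6 to 27.5) (log2 fold change 1.0, SE 0.15, FDR 0.0018). Of 6 B and plasma cell markers edgeR called 0, with 0 higher and 0 lower at an unadjusted p under 0.05 and 0 called by DESeq2 or limma. Their median of 0.23 rested on single tumors, since it ran from 0.05 to 1.15 with 1 tumor left out and was 1.23, with 1 gene called higher, without the 4 tumors. The summed level was 327 CPM in WT tumor 2 and 121 to 164 in the other tumors from WT hosts, against 135 to 212 in those from KO hosts. Of 8 neutrophil markers edgeR called 0, with 3 higher and 0 lower at an unadjusted p under 0.05 and 0 called by DESeq2 or limma, and 1 higher by edgeR without the 4 tumors. Of 12 pericyte markers edgeR called 0, with 2 higher and 2 lower at an unadjusted p under 0.05, 1 higher called by DESeq2 and 1 higher by limma, and 1 higher by edgeR without the 4 tumors.

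Of 27 cyclin-dependent kinase inhibitors and p53 targets edgeR called 0, with 3 higher and 3 lower at an unadjusted p under 0.05, 1 lower called by DESeq2 and 0 by limma. Of 31 genes of the unfolded protein response edgeR called 0, with 2 higher and 2 lower at an unadjusted p under 0.05 and 0 called by DESeq2 or limma. Of 16 clock genes edgeR called 0, with 1 higher and 2 lower at an unadjusted p under 0.05 and 0 called by DESeq2 or limma. Of 23 immediate early genes edgeR called 0, with 6 higher and 1 lower at an unadjusted p under 0.05, 1 higher and 1 lower called by DESeq2 and 0 by limma, and the median was 0.26 (0.09 to 0.36 with 1 tumor left out). In the fit without the 4 tumors 1 of them was called lower. *Atf3*, a stress-induced factor, was at 34.1 CPM (19 to 45.7) against 17 (9.45 to 22.5) (log2 fold change 0.97, FDR 0.114).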
